A study of Mus musculus with 8 samples.

Results

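The 9 genes described here, Lin28a, Lin28b, Trim71, L1td1, Dppa2, Dppa4, Dppa5a, Sall4 and Utf1, encode RNA-binding proteins and chromatin-associated factors known from pluripotent stem cells. They were found by their Entrez identifiers in a count table of 21950 genes, and all 9 were in it. The table compared mouse d6PGCLCs with female PGCs at E12.5, with 4 libraries of each. PGCs are the embryonic precursors of eggs and sperm, and PGCLCs are germ cell-like cells made from pluripotent stem cells in culture. The d6PGCLCs came from 1 female iPSC line made from adult tail tip fibroblasts that carried the Blimp1-Venus and Stella-ECFP reporters. They were collected 6 days after the EpiLC stage, at day 8 of culture, and were sorted for both reporters. The PGCs were sorted with SSEA1 and integrin β3 antibodies from the gonads of female C57BL/6J embryos and carried no reporter. The groups therefore differed in sorting strategy, reporters, culture, cell origin and developmental stage, and these differences cannot be told apart. As to stage, the study cites earlier work that likens d6PGCLCs to migrating PGCs from before E12.5. Each library was a pool of cells from an independent experiment.

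Many of these genes meet in 1 small regulatory circuit. LIN28A and its paralog LIN28B bind the precursors of let-7 microRNAs and mark them for uridylation and decay, while mature let-7 binds the mRNAs of both Lin28 genes and of Trim71, an RNA-binding ubiquitin ligase that represses mRNAs. LIN28 is also needed for the formation of mouse PGCs, in which it relieves repression of Prdm1 by let-7. DPPA2 and DPPA4 form a heterodimer that binds CpG-rich promoters and acts upstream of the two-cell-stage transcripts. DPPA5A is a small KH-domain protein, SALL4 is a zinc-finger transcription factor that recruits the NuRD corepressor complex, UTF1 is a chromatin-bound factor of undifferentiated embryonic cells, and L1TD1 is an RNA-binding protein derived from a LINE-1 open reading frame that associates with LIN28.

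The let-7 sequences are shown first because LIN28 acts on let-7 precursors and 4 of the 9 genes hold letters that match the let-7 seed. Of 13 let-7 and miR-98 loci in RefSeq (GRCm38), 12 carry the seed GAGGUAG at bases 2 to 8, in 10 distinct mature sequences. The seed is in capitals in these examples, which differ from each other outside it.

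mmu-let-7a-5p: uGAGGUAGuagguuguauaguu

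mmu-let-7g-5p: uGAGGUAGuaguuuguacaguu

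mmu-miR-98-5p: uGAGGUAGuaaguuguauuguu

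LIN28 is known to recognise a GGAG element in the terminal loop of let-7 precursors. The letters GGAG lay between the arms in 8 of the 11 hairpins for which both arms were annotated, and were absent there from Mir98, Mirlet7b and Mirlet7c-2. The hairpin of Mirlet7g (chr9:106178840-106178927, plus strand) is shown with these letters in capitals as the element that LIN28 reads.

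Mirlet7g hairpin: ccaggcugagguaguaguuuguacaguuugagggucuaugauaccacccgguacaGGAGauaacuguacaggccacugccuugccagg

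The complement of the seed, CTACCTC, was searched on the sense strand of the longest annotated 3′ UTR of each gene (GENCODE vM21, GRCm38). It occurred 4 times in Lin28b, 4 times in Trim71, 2 times in Lin28a and 1 time in Sall4. The other 5 genes had no such letters in that window, and their 3′ UTRs were shorter, at 122 to 1012 bases against 1697 to 5512. Of 20831 protein-coding genes, 9.11% had at least 1 match, and among the 10243 with a 3′ UTR of at least 1000 bases the share was 15.2%. Windows of 30 bases around a match are shown 5′ to 3′ on the minus strand, which encodes all 4 genes, with the match in capitals. They are the first match after the stop codon of each gene, and each lies in the last exon.

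Lin28a (chr4:134005179-134005208): cagcctgttgaaCTACCTCatttttgccga

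Lin28b (chr10:45381012-45381041): cgggcgggaagtCTACCTCatgcaagcaca

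Trim71 (chr9:114512462-114512491): attgcctaagtcCTACCTCagcttaaattt

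Sall4 (chr2:168748930-168748959): gctttaatttatCTACCTCaattatcttta

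All 4 of these matches were followed by an A, as were all matches of Lin28a and Trim71, whereas in Lin28b only 1 of 4 was. The Sall4 match was read from an isoform other than the one nearest in length to the counted one. A match is a description of the letters and was not tested as a binding site, and let-7 itself was not measured in these poly(A) libraries.

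**Figure D1:**
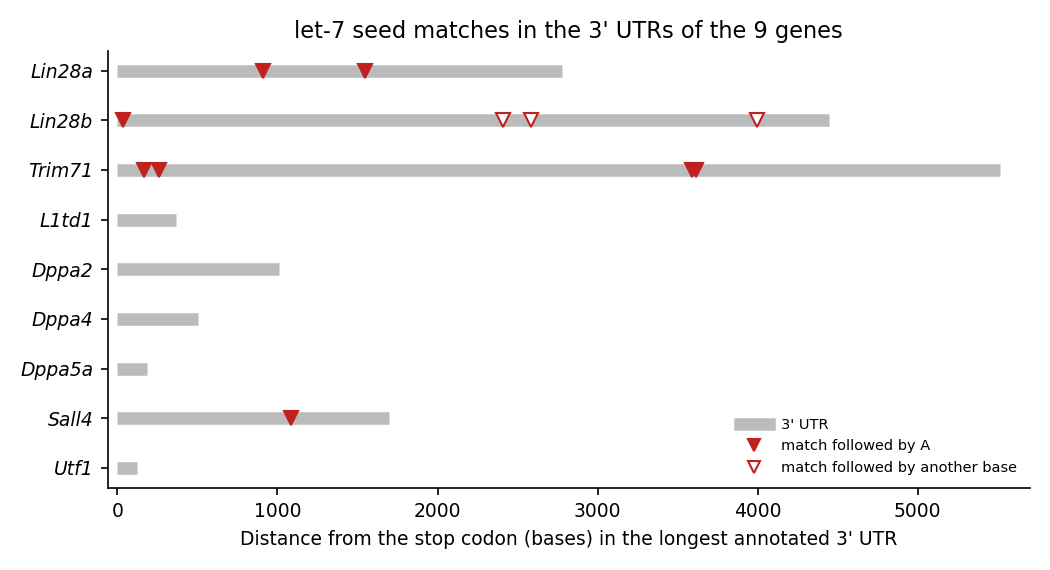
Longest annotated 3′ UTR of each of the 9 genes (grey bars, in bases from the stop codon) with matches to the let-7 seed (triangles, filled where an A follows). Lin28b and Trim71 hold 4 matches each, Lin28a holds 2 and Sall4 holds 1, and the shorter 3′ UTRs of the other 5 genes hold none.

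Counted reads per library numbered 8054596 to 12024841 for d6PGCLCs and 7991437 to 11166023 for PGCs, and the detection limit of 3 counts equals 0.249 to 0.383 CPM (counts scaled to a common library total, with TMM factors). Such limits cover counting error only. Of 12 germ cell markers, 5 were higher in d6PGCLCs (Dppa3, Prdm1, Prdm14, Tfap2c and Pou5f1, at log2 fold changes from 0.65 to 1.21), 5 were lower and 2 did not pass, with a median log2 fold change of -0.02. Nearly all of these markers were well counted, and among genes with a mean count of 100 or more 28.3% were higher and 25.8% lower, against 16.1% and 15.4% of all genes, the background for the sparser markers that follow. Among the lower genes were Ddx4 and Dazl, which encode RNA-binding proteins of gonadal germ cells and were in PGCs at 760 ± 92.2 and 1262 ± 241 CPM (SD, n = 4), against 35.5 ± 6.60 and 37.7 ± 23.2 CPM in the d6PGCLCs. Itgb3, which encodes integrin β3, and Fut4, a fucosyltransferase gene linked to the SSEA1 antigen, were also lower, at log2 fold changes of -0.72 (SE 0.09) and -3.48 (SE 0.36), and the PGCs but not the d6PGCLCs were sorted for these antigens. PGC replicates 2 and 4 stood apart. Replicate 2 had 144 CPM of the heat shock gene Hspa1a against 4.42 to 20.3 CPM in the other PGC libraries and 0.305 to 0.747 CPM in the d6PGCLCs, and replicate 4, which is labelled female, held 99 counts of Y-linked genes where the other 7 libraries held 0. Fold changes of the 9 genes are therefore also given without both of these libraries. Markers of gonadal somatic cells summed to 13.4 to 23.6 CPM in the PGC libraries and 2.99 to 9.57 CPM in the d6PGCLCs over 13 genes, of which 7 were lower and 1 was higher in d6PGCLCs. The lower genes included Irx3, Wnt4 and Fst, at log2 fold changes of -1.32, -3.38 and -2.70, and Emx2 was at 0 in every d6PGCLC library. Wnt4 and Fst averaged 0.116 and 0.239 CPM in d6PGCLCs, below the limit of detection, so that the size of their fold changes is uncertain. Markers of endothelium and blood summed to 14.5 to 25.0 CPM in PGCs and 23.1 to 36.0 CPM in d6PGCLCs over 7 genes, of which Cdh5 and Csf1r were higher in d6PGCLCs, Csf1r was at 0 in every PGC library, and Emcn did not pass (adjusted p = 0.150). Markers of EpiLCs and epiblast summed to 23.4 to 27.3 CPM in PGCs and 21.3 to 36.6 CPM in d6PGCLCs over 8 genes, of which 4 were lower, Pou3f1 among them (log2 fold change -1.48, SE 0.30), and Dnmt3b was higher in d6PGCLCs (0.94, SE 0.20). Without PGC replicates 2 and 4, 2 EpiLC markers were higher, 3 lower and 3 did not pass, and 6 gonadal somatic markers were lower. Emx2 was named after its values had been seen. These sums were each below the level of every one of the 9 genes except Lin28b, and their part in the results was not tested.

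All 9 genes were transcribed in every library of both cell types. Their mean counts ran from 428.5 for Lin28b to 9124 for Sall4, far above the limit of detection. Levels between genes were compared as RPKM, that is, CPM per kilobase of the counted exons. Dppa5a was the most abundant of the 9 per length in both cell types, at 1392 ± 378 RPKM in d6PGCLCs and 731 ± 166 RPKM in PGCs (SD, n = 4). These levels placed it at rank 15 and rank 26 of all 21950 genes. Utf1 followed at 458 ± 52.3 and 432 ± 30.8 RPKM. Lin28b was the least abundant in both, at 5.79 ± 2.34 and 9.96 ± 1.17 RPKM. 

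The order of the levels changed in the middle. In d6PGCLCs Utf1 was followed by L1td1 at 187 ± 23.2, Sall4 at 173 ± 19.3, Dppa4 at 151 ± 23.7, Lin28a at 83.6 ± 17.7, Dppa2 at 33.0 ± 6.63 and Trim71 at 31.5 ± 5.21 RPKM. In PGCs the order after Utf1 was Lin28a at 196 ± 18.3, Sall4 at 186 ± 18.2, Dppa4 at 185 ± 10.2, L1td1 at 119 ± 7.66, Trim71 at 36.7 ± 4.45 and Dppa2 at 27.1 ± 1.13 RPKM. Lin28a was thus at place 6 in d6PGCLCs and at place 3 in PGCs, and L1td1 was at place 3 and place 6. Neighbours whose ranges overlapped were L1td1 and Sall4, Sall4 and Dppa4, and Dppa2 and Trim71 in d6PGCLCs, and Lin28a and Sall4, and Sall4 and Dppa4 in PGCs. All other neighbours were apart in every library.

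**Figure D2:**
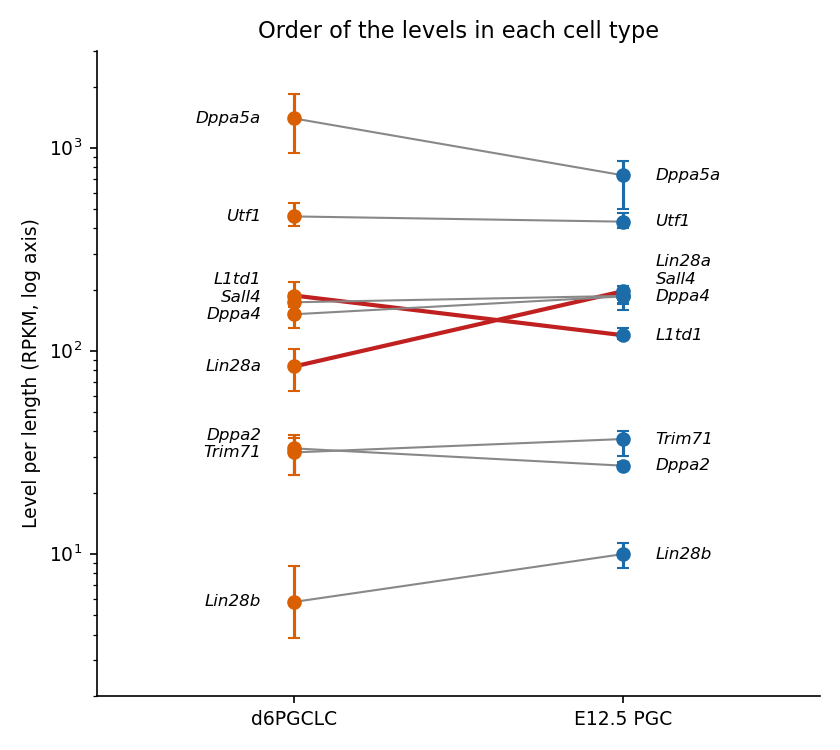
Mean level per length of the 9 genes (RPKM, log axis) in d6PGCLCs (left) and E12.5 PGCs (right), with bars from the lowest to the highest of 4 libraries. Lin28a, at 83.6 RPKM in d6PGCLCs and 196 RPKM in PGCs, and L1td1, at 187 and 119 RPKM, exchange places (red lines).

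Between the cell types, 2 of the 9 genes were higher in d6PGCLCs (Dppa5a and L1td1), 3 were lower (Lin28a, Lin28b and Dppa4), and 4 did not pass the test (Dppa2, Sall4, Utf1 and Trim71) in edgeR's quasi-likelihood test over all genes, where the threshold was 0.05 after Benjamini-Hochberg adjustment. Of all 21950 genes, 16.1% were higher and 15.4% lower by the same rule. The 9 genes were well counted, and of the 8128 genes whose mean count was 100 or more, called well-counted here, 28.3% were higher and 25.8% lower, so that shares of 2 and 3 in 9 are close to this background. Only Lin28a also passed the study's fold threshold for regulators, a log2 fold change of 1 or more in size, which 14.7% of all genes and 13% of the well-counted genes passed. The number was 2 without d6PGCLC replicate 1, without d6PGCLC replicate 4, without PGC replicate 4, and without PGC replicates 2 and 4 together. None passed the study's threshold of 2 for differentially expressed genes, which 6.62% of all genes passed. At an unadjusted p below 0.05, 6 of the 9 genes passed with any fold and 0 at the fold threshold of 2, and DESeq2 also called 0 there. The groups did not overlap for 3 of the 9 genes, against 51.8% of the well-counted genes. The median log2 fold change of the 9 was -0.10, beside 0.00 for the well-counted genes and -0.03 for all 17010 genes with a count. In such bulk libraries fewer cells with a transcript and less of it per cell cannot be told apart.

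**Figure D3:**
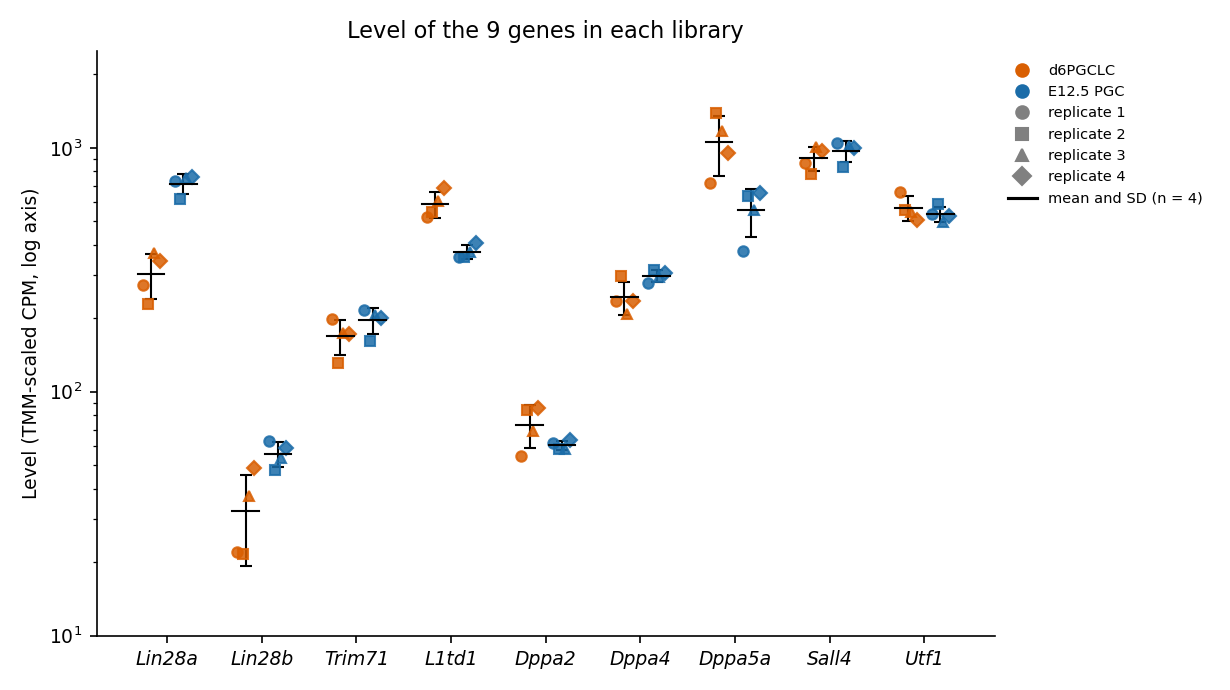
Level of each of the 9 genes in each of 8 libraries (TMM-scaled CPM, log axis), with d6PGCLCs in orange, E12.5 PGCs in blue, marker shapes for the replicates, and mean and SD (n = 4). The groups are apart for Lin28a, L1td1 and Dppa5a and overlap for the other 6 genes.

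The Lin28 paralogs were both lower in d6PGCLCs. Lin28a (chr4:134003330-134019196) was at 274, 230, 371 and 343 CPM in d6PGCLC replicates 1 to 4 and at 731, 615, 749 and 759 CPM in PGC replicates 1 to 4. Every d6PGCLC library lay below every PGC library, and the highest of the first was still well under the lowest of the second. The mean was 304 ± 64.4 against 714 ± 66.6 CPM (SD, n = 4), which was 2.35-fold lower, with a log2 fold change of -1.23 (SE 0.12, edgeR adjusted p = 4.81e-08). Leaving out each library in turn gave log2 fold changes from -1.34 to -1.12, and without PGC replicates 2 and 4 it was -1.28. A noncoding gene, Gm13061, overlaps the exons of Lin28a on the opposite strand, and since the use of strand in the counting is not given in the sources used here, its reads cannot be separated from those of Lin28a.

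Lin28b (chr10:45376617-45486314) was at 22.1, 21.6, 37.3 and 48.9 CPM in the d6PGCLCs and at 63.0, 47.9, 53.6 and 58.7 CPM in the PGCs. The d6PGCLC libraries spread widely, with a coefficient of variation of 40.5% against 11.7% in PGCs, and the highest of them overlapped the lowest PGC library. The means of 32.4 ± 13.1 and 55.8 ± 6.53 CPM (SD, n = 4) differed by a log2 fold change of -0.78 (SE 0.19, edgeR adjusted p = 0.00278). The call held when any 1 library was left out, with log2 fold changes from -1.04 to -0.63, and without PGC replicates 2 and 4 it was -0.84. Per length, Lin28a exceeded Lin28b 15.4 ± 3.44-fold in d6PGCLCs and 19.8 ± 1.49-fold in PGCs. The difference of the log2 ratios, d6PGCLC minus PGC, was -0.40, and the groups overlapped (exact permutation test, two-sided, p = 0.0571, where 0.0286 is the smallest p that 4 against 4 libraries can give). Without d6PGCLC replicate 1 it was -0.51 with an exact p of 0.0286, without d6PGCLC replicate 4 it was -0.24 with an exact p of 0.0857, and without PGC replicates 2 and 4 it was -0.39 with an exact p of 0.267, where 0.0667 is the smallest that 4 against 2 libraries can give. With a pseudocount of 1 in place of 0.1 RPKM it was -0.49 with an exact p of 0.0286 over all 8 libraries, so that whether the balance of the paralogs differed depended on these settings.

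By likeness of pattern, the 3 well-counted genes closest to Lin28a over the 8 libraries were Nckap5l, Axin2 and Cux2, with root mean square differences of 0.09, 0.10 and 0.11 in centred log2(CPM + 0.1) among 8119 candidates. Their log2 fold changes were -1.37, -1.36 and -1.17.

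Trim71 (chr9:114511268-114564369), the let-7 target that holds 4 seed matches, was at 198, 131, 175 and 172 CPM in the d6PGCLCs and at 216, 162, 207 and 201 CPM in the PGCs. The ranges overlapped, and the lowest value of each group was in replicate 2. The means were 169 ± 27.9 and 197 ± 23.8 CPM (SD, n = 4), with a log2 fold change of -0.22 (SE 0.12, edgeR adjusted p = 0.176). With 1 library left out the log2 fold change ran from -0.12 without d6PGCLC replicate 2 (edgeR adjusted p = 0.504) to -0.30 without d6PGCLC replicate 1 (adjusted p = 0.0255). Without PGC replicates 2 and 4 it was -0.32 (adjusted p = 0.0707). With a replicate block it was -0.23 and passed (edgeR adjusted p = 0.0298), although the replicate numbers were not taken as pairs. The counted isoform of Trim71 is 5352 bases long and the annotated transcript 9332, so that part of the 3′ UTR was not counted. Of the 4 seed matches, 2 (chr9:114509037-114509066 and chr9:114509011-114509040) lie outside the coordinates of the gene given above. The exons of C130032M10Rik overlap Trim71 on the opposite strand.

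L1td1 (chr4:98726754-98738486) was at 518, 545, 603 and 683 CPM in the d6PGCLCs and at 358, 357, 375 and 408 CPM in the PGCs. All d6PGCLC libraries lay above all PGC libraries, and both groups were tight. The means of 587 ± 72.9 and 375 ± 24.1 CPM (SD, n = 4) gave a 1.57-fold higher level, with a log2 fold change of 0.65 (SE 0.09, edgeR adjusted p = 9.79e-06). The value ranged from 0.57 to 0.70 when 1 library was left out, and was 0.68 without PGC replicates 2 and 4. L1td1 and Lin28a, whose proteins associate, thus went in opposite directions.

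Dppa2 and Dppa4, which lie next to each other on chromosome 16 and encode the 2 partners of a heterodimer, gave fold changes of opposite sign, and only that of Dppa4 passed the test. Dppa4 (chr16:48283735-48294292) was at 236, 299, 209 and 235 CPM in the d6PGCLCs and at 278, 316, 296 and 307 CPM in the PGCs. Its d6PGCLC replicate 2 reached into the range of the PGCs. The means were 245 ± 38.4 and 299 ± 16.5 CPM (SD, n = 4), with a log2 fold change of -0.29 (SE 0.10, edgeR adjusted p = 0.0301). The adjusted p was above 0.05 without d6PGCLC replicate 3 (0.120, log2 fold change -0.23), d6PGCLC replicate 4 (0.0741, -0.27), PGC replicate 2 (0.0792, -0.26), PGC replicate 3 (0.0627, -0.30), PGC replicate 4 (0.0774, -0.28), or PGC replicates 2 and 4 together (0.211, -0.23).

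Dppa2 (chr16:48310274-48319513) was at 54.4, 84.5, 69.0 and 85.5 CPM in the d6PGCLCs and at 61.6, 58.2, 58.2 and 63.2 CPM in the PGCs. Of the d6PGCLC libraries 3 lay above all PGC libraries, and replicate 1 lay below all of them. The means of 73.3 ± 14.7 and 60.3 ± 2.52 CPM (SD, n = 4) differed by a log2 fold change of 0.28 (SE 0.13, edgeR adjusted p = 0.0996). Without d6PGCLC replicate 1 it was 0.40 with an edgeR adjusted p of 0.00315, and without PGC replicates 2 and 4 it was 0.29 (adjusted p = 0.223). Without d6PGCLC replicate 2 it was 0.20 (adjusted p = 0.305), and with an offset for gene length it was 0.17 (adjusted p = 0.347).

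The ratio of Dppa2 to Dppa4 per length was 0.168, 0.206, 0.241 and 0.265 in the d6PGCLCs and 0.161, 0.134, 0.143 and 0.150 in the PGCs. Every d6PGCLC library was above every PGC library, with little space between d6PGCLC replicate 1 and PGC replicate 1. The log2 ratio was 0.56 higher in d6PGCLCs (exact permutation test, two-sided, p = 0.0286, the smallest that 4 against 4 libraries can give). Without PGC replicate 1, 2, 3 or 4 the exact p was 0.0571 with the difference at 0.61, 0.52, 0.55 and 0.57. Reads of both genes are partly lost to near-identical copies, because only reads with 1 position in the genome were counted. Of all 100-base words in the annotated transcripts, 23.9% of those of Dppa2 also occur in Gm8023, Gm9298 or Gm9788, and 16.8% of those of Dppa4 in Gm14058 or Gm5501. The levels and the ratio are therefore uncertain.

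Transcripts of the two-cell stage, which DPPA2 and DPPA4 are known to act upstream of through Dux, were at or near the limit of detection. Of 18 such genes listed, 15 were matched in the table, without Dux itself, and 12 of these had at most 3 counts in every library. Many of them are members of multicopy families such as Zscan4 and Tcstv, whose reads are partly lost when only unique positions are counted. The list summed to 0.383 to 1.73 CPM in the d6PGCLCs and 0.0903 to 1.20 CPM in the PGCs. None of the 15 was called by edgeR (2 at an unadjusted p below 0.05) or by DESeq2, and the smallest edgeR adjusted p were 0.114 for Zscan4d and 0.130 for Tmem92. Other Dppa genes were Dppa3, which encodes STELLA and was higher in d6PGCLCs at 691 ± 118 against 384 ± 42.5 CPM (SD, n = 4, log2 fold change 0.85, edgeR adjusted p = 3.50e-06), and Dppa1 with 0 counts in every library. The d6PGCLCs were sorted for a Stella reporter.

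Dppa5a (chr9:78367052-78368199) was at 717, 1387, 1168 and 955 CPM in the d6PGCLCs and at 377, 632, 558 and 653 CPM in the PGCs. All d6PGCLC libraries lay above all PGC libraries, and replicate 1 was the lowest of each group. The means of 1057 ± 287 and 555 ± 126 CPM (SD, n = 4) gave a 1.90-fold higher level, with a log2 fold change of 0.93 (SE 0.16, edgeR adjusted p = 9.79e-05). The value ranged from 0.76 to 1.08 with 1 library left out, and without PGC replicates 2 and 4 it was 1.18 and past the threshold of 1. Exact 100-base words shared with Dppa5b, Dppa5c and 2 other genes made up 3.08% of its transcript.

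The spread of Dppa5a moved with a trend on gene length in the libraries. Its counted isoform is the shortest of the 9, at 759 bases. The slope of a library's deviation on log10 exonic length was most positive in replicate 1 of each group, at 0.157 in d6PGCLCs and 0.331 in PGCs, and most negative in replicate 2 of each group, at -0.334 and -0.134. With an offset for length, the coefficient of variation of Dppa5a was 17.1% in place of 27.2% in d6PGCLCs and 15.7% in place of 22.6% in PGCs. The log2 fold change was then 0.89 (edgeR adjusted p = 6.34e-07). Utf1, the next shortest at 1240 bases, went the other way in d6PGCLCs, where replicate 1 was its highest library and its coefficient of variation was 16.6% with the offset in place of 11.4%. Of the longer genes, Lin28a, Lin28b, Sall4 and Trim71, whose counted isoforms span 3640 to 5603 bases, each had their lowest value in replicate 2 of both groups. The offset left the d6PGCLC coefficients of variation of Lin28a and Lin28b at 20.6% and 39.1%, in place of 21.2% and 40.5%, and gave 10.1% in place of 11.2% for Sall4 and 12.7% in place of 16.5% for Trim71. What sets the length trend was not tested.

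Genes related to Dppa5a split in both directions. Of 9 KH-domain relatives and their partners in the oocyte's subcortical maternal complex, 4 were higher, 3 lower and 2 did not pass, with a median log2 fold change of 0.55, beside 16.1% higher and 15.4% lower among all genes. Dppa5a itself is 1 of the 4. Khdc3 and Ooep, which encode KH-domain subunits of that complex, were higher at log2 fold changes of 1.72 (SE 0.32) and 1.19 (SE 0.16), and their partner Tle6 at 0.55 (SE 0.13). Khdc1a and Khdc1c were lower, at -1.92 (SE 0.18) and -2.53 (SE 0.39), and Khdc1b had 0 counts in every d6PGCLC library and 0.441 ± 0.174 CPM in PGCs, close to the limit of detection, and was named after its values had been seen.

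**Figure D4:**
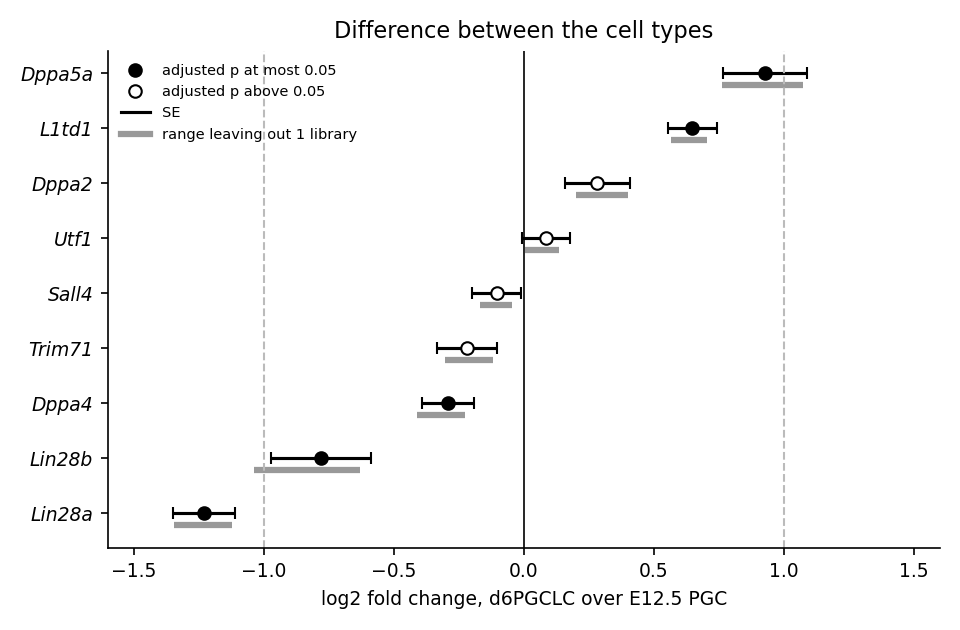
Log2 fold change of the 9 genes, d6PGCLC over E12.5 PGC, with SE (black bars) and the range over the 8 fits that each leave out 1 library (grey bars), with filled points for an adjusted p of at most 0.05. Lin28a at -1.23 is the only point beyond the dashed lines at -1 and 1.

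Sall4 and Utf1 were abundant in both cell types and were not called. Sall4 (chr2:168748332-168767201) was at 865, 783, 1004 and 972 CPM in the d6PGCLCs and at 1046, 834, 1017 and 999 CPM in the PGCs. The ranges overlapped, 2 PGC libraries lay above all d6PGCLC libraries, and replicate 2 was the lowest of each group. The means were 906 ± 101 and 974 ± 95.4 CPM (SD, n = 4), with a log2 fold change of -0.10 (SE 0.10, edgeR adjusted p = 0.526). With 1 library left out it ran from -0.17 without PGC replicate 2 (adjusted p = 0.189) to -0.05 without d6PGCLC replicate 2 (adjusted p = 0.929), and without PGC replicates 2 and 4 it was -0.19 (adjusted p = 0.251). The noncoding gene Gm14261 overlaps its exons on the opposite strand.

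Utf1 (chr7:139943856-139945112) was at 660, 558, 548 and 508 CPM in the d6PGCLCs and at 533, 588, 498 and 523 CPM in the PGCs. The values of the groups were interleaved. The means were 568 ± 64.9 and 536 ± 38.2 CPM (SD, n = 4), with a log2 fold change of 0.09 (SE 0.09, edgeR adjusted p = 0.600). Over all 19 alternatives it stayed between 0.00 and 0.14.

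The other Sall genes differed more than Sall4. Sall1 was higher in d6PGCLCs, at 32.8 ± 16.7 against 11.4 ± 3.56 CPM (SD, n = 4, log2 fold change 1.53, edgeR adjusted p = 6.41e-05). Sall3 was lower, at 0.470 ± 0.341 against 18.6 ± 3.27 CPM (log2 fold change -5.32, SE 0.39), as was Sall2, at 0.623 ± 0.131 against 3.70 ± 0.537 CPM (-2.53, SE 0.35). The d6PGCLC means of Sall3 and Sall2 were close to the limit of detection, so that the size of their fold changes is uncertain. Sall4 exceeded the sum of the other 3 in every library. Of 13 listed subunits of NuRD, the corepressor complex that SALL4 recruits, 11 were matched in the table, without Chd4 and Rbbp4. Of the 11, 2 were higher, 4 lower and 5 did not pass, with a median of -0.07. Without PGC replicates 2 and 4 the counts were 1, 4 and 6. Among the well-counted genes 28.3% were higher and 25.8% lower. The changes were small: the histone deacetylase Hdac1 was at -0.62 (SE 0.10) and the remodeller Chd3 at -0.78 (SE 0.14), and none reached a log2 fold change of 1 in size in edgeR (0 also at an unadjusted p below 0.05) or in DESeq2.

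The let-7 pathway around Lin28 and Trim71 was described from a list of 17 processing and decay genes, of which 16 were in the table. Of these, 4 were higher in d6PGCLCs, 6 lower and 6 did not pass, with a median log2 fold change of -0.18, and without PGC replicates 2 and 4 the counts were 3, 5 and 8. Among the well-counted genes 28.3% were higher and 25.8% lower. Trim25, a cofactor of LIN28A-dependent uridylation, was higher at 403 ± 32.2 against 258 ± 11.3 CPM (SD, n = 4, log2 fold change 0.64, edgeR adjusted p = 3.78e-06), and the RNA helicase Ddx17 was higher at 0.61 (SE 0.10). The uridylyltransferases Tut4 and Tut7, which act with LIN28, were at -0.26 (SE 0.12, edgeR adjusted p = 0.133) and -0.47 (SE 0.15, adjusted p = 0.0187), and Dis3l2, the exonuclease that degrades uridylated precursors, was at 0.33 (SE 0.12, adjusted p = 0.0331). Only Ago4, a low-abundance Argonaute at 1.39 ± 0.371 against 4.87 ± 2.25 CPM (SD, n = 4), passed the fold threshold of 1, at -1.78. Ago4, Tut4, Tut7 and Dis3l2 were named after their values had been seen.

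Of 36 known let-7 target genes, 34 were in the table, Trim71 among them, and 5 were higher in d6PGCLCs, 13 lower and 16 did not pass. Without PGC replicates 2 and 4 the counts were 5, 14 and 15. Among the well-counted genes these shares were 28.3% higher and 25.8% lower. The median log2 fold change was -0.18, and 7 genes passed the fold threshold of 1, which 13% of the well-counted genes and 14.7% of all genes passed. The number was 6 with the filterByExpr filter and 9 without PGC replicates 2 and 4. Plagl1, an imprinted zinc-finger gene, was at 7.0 ± 2.37 against 48.5 ± 14.8 CPM (SD, n = 4, log2 fold change -2.81, edgeR adjusted p = 3.63e-09). The MAP kinase phosphatase gene Dusp9 was at 96.7 ± 46.4 against 455 ± 66.6 CPM (-2.24, SE 0.21), and the cell cycle genes Ccnd1 and Cdk6 were at -1.92 (SE 0.46) and -1.70 (SE 0.20). Arid3b, an ARID-domain transcription factor, was lower at -1.06 (SE 0.08). Prdm1 was the only 1 of the 7 that was higher, at 444 ± 43.6 against 192 ± 18.1 CPM (SD, n = 4, log2 fold change 1.21, edgeR adjusted p = 2.11e-09), and the d6PGCLCs were sorted for a reporter of that gene, also named Blimp1. By family, Igf2bp1 was higher at 0.41 (SE 0.09), Igf2bp3 was lower at -0.92 (SE 0.12) and Igf2bp2 did not pass at -0.45 (SE 0.20, edgeR adjusted p = 0.0992). These values too were picked after they had been seen. Seed matches were present in 22 of 35 genes of the list with the 9 genes left out (62.9%), so that the list and the search are not independent.

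The same search was set beside the fold changes of all genes. Over well-counted genes with a 3′ UTR of at least 1000 bases, the median log2 fold change was -0.02 for 716 genes with a match and -0.01 for 3768 without. Among the first 29.6% were higher and 26.7% lower in d6PGCLCs, and among the second 27.6% and 26.5%. The 100 genes with 2 or more matches had a median of 0.03. This description was added after the fold changes had been seen.

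Of the mRNAs known to be repressed by TRIM71, all 8 of the list passed the test, with 6 higher in d6PGCLCs, 2 lower, and a median log2 fold change of 0.58, beside 28.3% higher, 25.8% lower and a median of 0.00 among the well-counted genes. Without PGC replicates 2 and 4, 5 were higher, 2 lower and 1 did not pass. Plxnb2, a semaphorin receptor, was at 180 ± 13.9 against 49.2 ± 6.63 CPM (SD, n = 4, log2 fold change 1.87, edgeR adjusted p = 1.89e-11), and the splicing regulator Mbnl1 went the other way at -1.53 (SE 0.21). The retinoblastoma relative Rbl1 was at 0.78 (SE 0.14) and the CDK inhibitor gene Cdkn1a at 0.55 (SE 0.11). The list is short, its members were chosen from general knowledge with earlier results of these data known, and Trim71 itself did not pass the test.

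The transcription factors of pluripotency were mostly higher in d6PGCLCs. Of 14 such genes, 11 were higher, 0 were lower and 3 did not pass, with a median log2 fold change of 0.86, beside 28.3% higher and 25.8% lower among the well-counted genes, and the same counts were found without PGC replicates 2 and 4. Tfcp2l1, Nanog, Klf5 and Zfp42 were at 1.29, 1.25, 1.15 and 1.03, and Prdm14 and Esrrb were at 0.93 and 0.88. Of the 9 genes, only Dppa5a and L1td1 were called in the same direction.

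**Figure D5:**
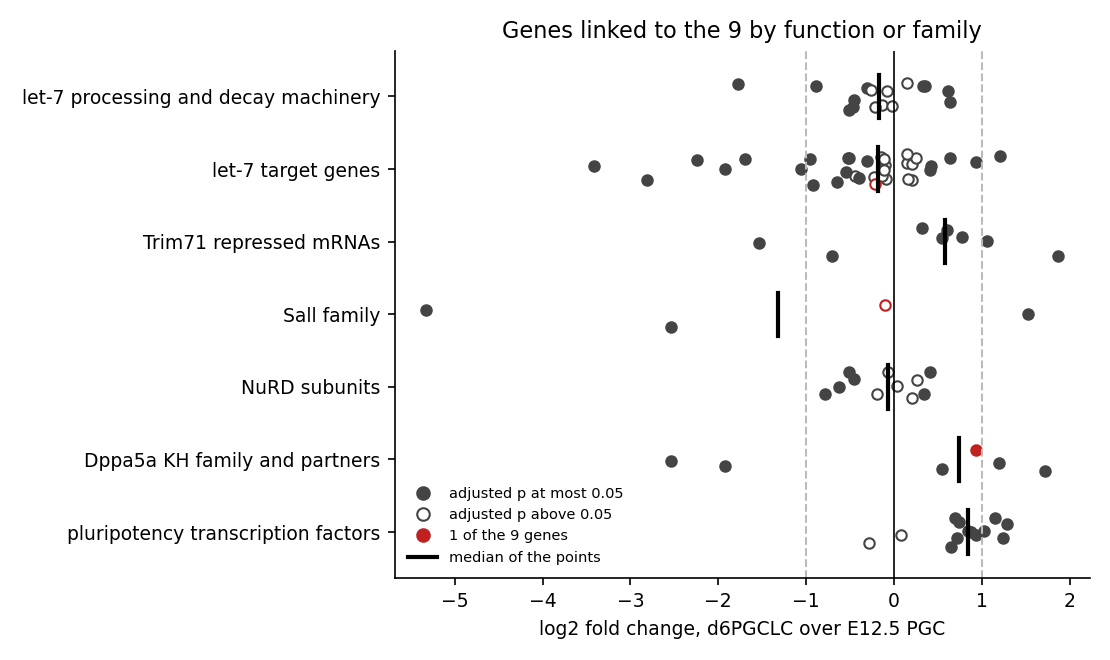
Log2 fold changes, d6PGCLC over E12.5 PGC, of genes linked to the 9 by function or family (1 point for each gene with 20 or more counts on average, filled where the adjusted p is at most 0.05, red for 1 of the 9, black bars for the median of the points). The 13 pluripotency factors drawn lie mostly right of 0, whereas the 34 let-7 targets spread from -3.42 to 1.21.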

How the data were processed

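RNA was measured in 4 libraries of d6PGCLCs and 4 of E12.5 PGCs. The authors mapped the single-end reads to GRCm38 plus ERCC sequences using STAR and deposited raw counts of uniquely mapped reads on the exons of 1 randomly chosen isoform per gene, together with the exonic length of that isoform in base pairs (per the file headers, a width). Whether counting used strand is not given in the sources used here. Symbols were matched from RefSeq for 21907 of 21950 genes. In R 4.3.3, edgeR 4.0.16 (quasi-likelihood test, TMM, prior count 0.125) was run without a filter on low counts and with cell type as the sole term, and p-values were adjusted by Benjamini-Hochberg over all genes. SEs combine the fit's inverse information with the posterior variance. The ratios used log2(RPKM + 0.1) and exact permutation tests. No pair of libraries within a group agreed within sampling noise, since chi-square divided by its degrees of freedom was 2.77 to 16.9. The replicates were separate pools, so p-values measure the spread between these experiments.

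The genes and lists were chosen with earlier results of these data known. Named list genes are those past an absolute log2 fold change of 1, up to the 4 largest among those averaging 50 counts or more, and the 2 with the smallest adjusted p among the rest. The alternatives were a likelihood ratio test, DESeq2 1.42.0, library size, DESeq2 size factors or upper quartile scaling, 2 filters (filterByExpr, or CPM above 1 in at least 3 libraries), a length offset (loess, span 0.5), prior count 2, a replicate block, pseudocounts of 1 and 0.01 RPKM, each library left out, and PGC replicates 2 and 4 left out together. For the gene lists, leaving out both of these libraries was added after the data had been seen. Counts were simulated for the d6PGCLC against PGC comparison over 21950 genes. Of these genes, 200 of 200 changed genes were called in the right direction and 6 of 16387 unchanged genes were called. The simulated result was not split by size of change or by spread between replicates. It therefore does not show how often small changes, such as those of Dppa4, Dppa2 and Trim71, would be called. A gene that did not pass is thus not shown to be unchanged. Sequences came from RefSeq and GENCODE vM21 on GRCm38.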

Additional observations from a re-analysis of the deposited data

How the results depend on the processing

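Over 19 alternatives for each gene no fold change of the 9 changed sign, and the calls of Lin28a, Lin28b, Dppa5a and L1td1 held in all 19, with log2 fold changes from -1.34 to -1.12, -1.04 to -0.63, 0.76 to 1.18 and 0.57 to 0.70. The call of Dppa4 was lost in 6 alternatives, all of which left out libraries, Dppa2 gained a call in 1 and Trim71 in 2. The number of genes past an absolute log2 fold change of 1 was 1 or 2 with 1 library left out (2 without d6PGCLC replicate 1, d6PGCLC replicate 4 or PGC replicate 4) and 2 without PGC replicates 2 and 4 together. The difference in the log2 ratio of Lin28a to Lin28b, d6PGCLC minus PGC, was -0.49 (exact permutation p = 0.0286) with a pseudocount of 1 RPKM. With 1 library left out it ran from -0.51 to -0.24, and it passed without d6PGCLC replicate 1. The difference in the log2 ratio of Dppa2 to Dppa4, d6PGCLC minus PGC, lay between 0.46 and 0.68 with 1 library left out. It did not pass, at an exact permutation p of 0.0571, without PGC replicate 1, 2, 3 or 4, at 0.61, 0.52, 0.55 and 0.57, where 3 against 4 libraries allow an exact p of 0.0286. Without PGC replicates 2 and 4 together it was 0.51 (exact permutation p = 0.133), a comparison of 4 against 2 libraries that cannot go below 0.0667 and so cannot pass. With a filter by filterByExpr, 1 gonadal somatic marker passed an absolute log2 fold change of 1 in place of 8, because fewer genes were tested.

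The replicate numbers were not taken as pairs. Same-numbered libraries correlated at 0.273, 0.104, -0.0227 and 0.0352 in their deviations over 11487 genes. d6PGCLC replicate 2 correlated only slightly better with PGC replicate 4, at 0.109. Whether same-numbered libraries shared a batch was not tested. A replicate block lowered the SE of all 9 genes, to 0.08 from 0.12 for Lin28a, 0.13 from 0.19 for Lin28b and 0.08 from 0.16 for Dppa5a. With a replicate block 3708 genes were higher and 3562 lower, in place of 3532 and 3387, and Trim71 passed at a log2 fold change of -0.23 (edgeR adjusted p = 0.0298). The difference in the log2 ratio of Dppa2 to Dppa4, d6PGCLC minus PGC, was then 0.56. Its exact permutation p was the smallest that 4 pairs can give, which is above 0.05. Depth limits only the low list genes, since the lowest mean of the 9 was 428.5 counts.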
